A study of Bombyx mori with 12 samples.

Results

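The cuticle proteins of the silkworm Bombyx mori that lack the Rebers-Riddiford (RR) chitin-binding motif were followed in larvae that differ in their number of molts. Members were the rows of the deposited count table whose NCBI symbol is CPG, CPH, CPFL, CPF or CPT followed by a number. They came to 70 of 17583 rows: 28 CPG genes (glycine-rich cuticle proteins), 34 CPH genes (hypothetical cuticle proteins), 4 CPFL genes (CPF-like) and 4 CPT genes (Tweedle), with no CPF symbol that carries a number. Of these, 62 had at least 10 counts in 3 or more of the 12 libraries and were tested: 24 CPG, 32 CPH, 3 CPFL and 3 CPT genes.

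All libraries held poly(A) RNA of the head and thorax of larvae of the strain Guangri 3 (spelled Gurangri 3 in the sample labels), sampled at the molt of the third instar. Guangri 3 is a dominant trimolter, and tetramolters are the larvae of the same strain that molt an additional time before spinning. The groups were batch 1 tetramolters, batch 1 trimolters, batch 2 tetramolters and batch 2 trimolters, with 3 libraries each. The study reared larvae in spring and, at a higher temperature, in autumn, but no label ties a season to a batch, so season, rearing temperature, day length and whatever else the label batch stands for cannot be told apart. Head and thorax tissue was pooled and no label ties a library to 1 animal, so p-values measure only the spread between these libraries, which may be technical in part.

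Insect cuticle is a composite of chitin fibres and proteins that epidermal cells secrete anew at each molt, before the old cuticle is shed. Each stage of the molt has its own set of transcribed cuticle protein genes, driven in turn by the rise and fall of ecdysteroids, so that 1 gene can be high before and low after the shedding of the old cuticle. RR proteins bind chitin through their shared motif. Proteins outside that family include glycine-rich proteins of repeated short motifs, the CPF proteins with a short conserved region and the CPF-like (CPFL) proteins related to them, and the Tweedle proteins, named after a fruit fly mutant with a short, stout body. The CPH symbols were given to cuticle proteins of the silkworm that fell into none of the known families.

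Library totals ranged from 13449541 to 15650612 counts, and the 70 genes took 2.52% to 8.06% of them. The rule divided genes of low depth: CPG7 and CPT4 reached 10 counts in only 2 libraries and were left out, while CPG25, with 242 counts in all, reached it in 4 and was kept. The other 6 genes left out were CPG2, CPG8, CPG11, CPH20, CPH22 and CPFL2, and no library held more than 16 counts of any of the 8. Replicates of the batch 1 trimolters were the least alike, with Pearson r across genes of log2 CPM (counts scaled to library size) of 0.937 to 0.967, against 0.978 or more within each other group. The library that stands apart for these genes is batch 1 trimolter 2. Its level over the mean of batch 1 trimolters 1 and 3 had a median of 0.251 over CPH genes, 0.261 over CPFL genes, 0.931 over CPT genes and 0.729 over CPG genes, against 1.02 over all tested genes. Leaving it out lost no call of the 62 genes between molting types and added 5 in batch 1 (CPG9, CPH1, CPH4, CPH15 and CPH28) and 12 in batch 2 (CPG9, CPH2, CPH3, CPH6, CPH10 to CPH15, CPH31 and CPFL1). For those described below by their values, the result without it is given as well. In bulk RNA, fewer epidermal cells and less RNA per cell cannot be told apart.

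On the authors' FPKM scale, which is per transcript length, CPH4 was the most abundant of these genes. It averaged 6313 FPKM over the 11 libraries with FPKM values, followed by CPFL1 with 3738, CPH30 with 3624 and CPH2 with 3333. The leading CPG genes were CPG4 with 2576 FPKM, CPG16 with 2361 and CPG13 with 1664, and CPT1, with 1048 FPKM, was the abundant Tweedle gene. Levels varied widely within the classes: the least abundant tested genes were CPH33 (0.610 FPKM), CPG26 (1.51 FPKM) and CPT2 (2.87 FPKM).

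The summed CPM of a class is set by its abundant members. CPG genes summed to 6832, 6738 and 6778 CPM in batch 1 tetramolters and to 9828, 9791 and 11500 CPM in batch 1 trimolters. In batch 2 the sums were 16540, 13850 and 12430 CPM in tetramolters and 5827, 5596 and 6079 CPM in trimolters. Molting types did not overlap in either batch and stood in opposite order, but the order of batch 1 rested on CPG4. Without CPG4 the other 27 CPG genes summed to 6032, 5882 and 5885 CPM in batch 1 tetramolters, against 5537, 5038 and 5066 CPM in batch 1 trimolters, so that tetramolters were the higher. Of that sum CPG16 held a large part, and without both genes the sums were 3697, 3554 and 3570 CPM in batch 1 tetramolters, against 4579, 3844 and 4309 CPM in batch 1 trimolters, with tetramolters again the lower. In batch 2 the tetramolters were the higher in each case, at 7347 to 8535 CPM without CPG4, against 3759 to 4424 CPM in trimolters. These genes were left out after their values were seen. CPH genes summed to 17730, 16830 and 16780 CPM in batch 1 tetramolters and to 59100, 12210 and 31830 CPM in batch 1 trimolters, where the second library lay below every tetramolter and the other libraries above. In batch 2 the CPH sums overlapped, with 24060, 22260 and 25350 CPM in tetramolters and 24210, 27390 and 23500 CPM in trimolters. CPFL genes summed to 1651 to 2001 CPM in batch 1 tetramolters against 2839 to 9621 CPM in batch 1 trimolters, and to 6524 to 7374 CPM in batch 2 tetramolters against 2347 to 3102 CPM in batch 2 trimolters.

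**Figure D1:**
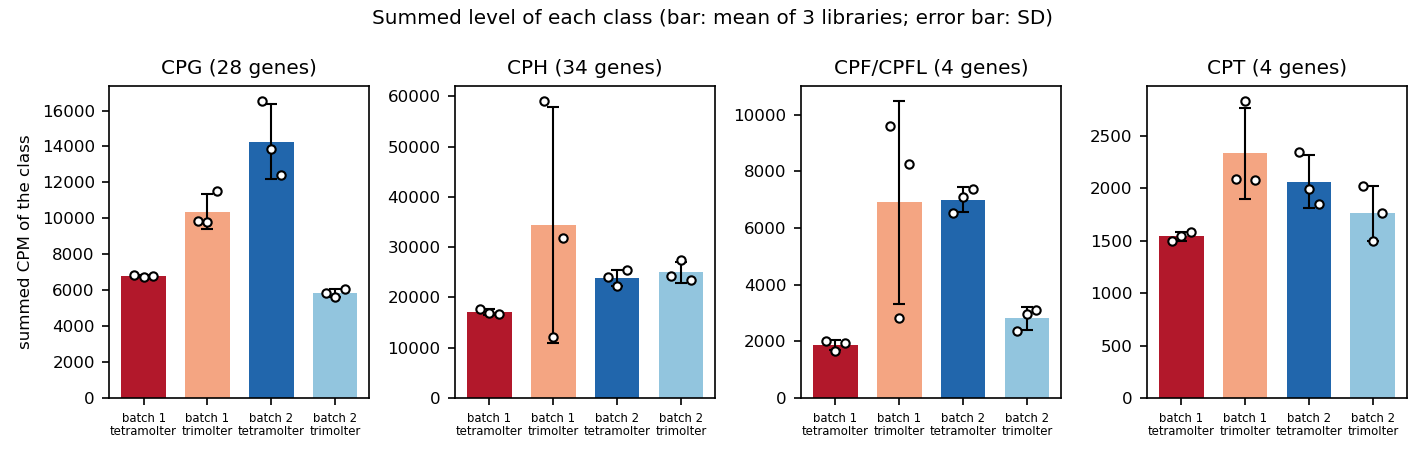
Summed CPM of each class by group (bars: mean of 3 libraries, error bars: SD, circles: libraries, each panel with its own axis from 0). CPG and CPFL sums are lower in tetramolters than in trimolters of batch 1 and higher in batch 2. In batch 1 the CPG order turns round without CPG4, and turns back without both CPG4 and CPG16. The CPH sums of batch 2 overlap, and those of batch 1 trimolters range from 12210 to 59100 CPM.

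The comparison of tetramolters with trimolters was fitted with edgeR across all 10721 tested genes, with adjusted p under 0.05 as the threshold. In batch 1, 38 of the 62 genes were lower in tetramolters and 5 were higher (CPG10, CPG16, CPG19, CPG24 and CPH27). Of all tested genes, 22.7% were called lower and 22.5% higher. The median log2 fold change was -1.49 over the 62 genes and 0.01 over all tested genes. By class, 12 of 24 CPG genes were lower and 4 higher, 20 of 32 CPH genes were lower and 1 higher, and all 3 CPFL and all 3 CPT genes were lower (limma-voom called 1 of the 3 CPT genes, CPT1). Library ranges did not overlap for 36 genes that were lower and 5 that were higher, where the share over all genes was 24.7% lower and 29.0% higher.

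In batch 2 most called CPG genes were higher in tetramolters, as were 2 of 3 CPFL and 2 of 3 CPT genes, and few CPH genes passed the test in the model of all 4 groups. Of the 62 genes, 26 were higher in tetramolters and 4 lower (CPG19, CPG24, CPH1 and CPH27), where 19.5% of all tested genes were called higher and 18.2% lower. The median log2 fold change was 0.70, against -0.01 over all tested genes. The 26 comprised 18 of 24 CPG genes, 4 of 32 CPH genes (CPH7, CPH18, CPH28 and CPH32), CPFL3 and CPFL4, and CPT2 and CPT3. The class medians were 1.85 for CPG and -0.27 for CPH genes. The CPH count differed between fits. The libraries of batch 2 did not overlap for 9 CPH genes that were higher and 12 that were lower (27.7% and 27.9% of all genes), and a fit to the batch 2 groups alone called 7 higher and 11 lower, where it called 23.1% of all genes higher and 22.2% lower. Without batch 1 trimolter 2, a library of the other batch, 7 were higher and 9 lower, where 21.4% and 20.7% of all genes were called. The 4 genes of all classes that were lower numbered 11 without that library. They numbered 2 without batch 2 tetramolter 2, batch 2 tetramolter 3 or batch 2 trimolter 1, where 13.1% to 14.4% of all genes were called lower.

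When the changes of the batches were tested against each other (batch 2 minus batch 1), the difference was positive for 40 of the 62 genes and negative for 4 (CPG10, CPG19, CPG24 and CPH27), where it was positive for 26.7% and negative for 26.8% of all tested genes (53.5% in all). It was positive for 17 of 24 CPG genes, 17 of 32 CPH genes, and all 3 tested genes of both CPFL and CPT. In the joint view, 18 genes were lower in tetramolters of batch 1 and higher in those of batch 2 (11.0% of all tested genes), and 3 showed the opposite (9.80%). Without batch 1 trimolter 1 the negative differences numbered 8 (29.2% of all genes), and without batch 2 tetramolter 3 the genes of the opposite pattern numbered 1. Across genes the batch 1 and batch 2 changes had a Pearson r of -0.53 and a Spearman rho of -0.53 over the 24 CPG genes, and of -0.60 and -0.38 over the 32 CPH genes. Over all 62 genes these were -0.46 and -0.40, and over all tested genes -0.49 and -0.53, so the order of CPH and all genes depends on the coefficient. The coefficients run over genes of the same 12 libraries, and genes are not independent replicates.

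**Figure D2:**
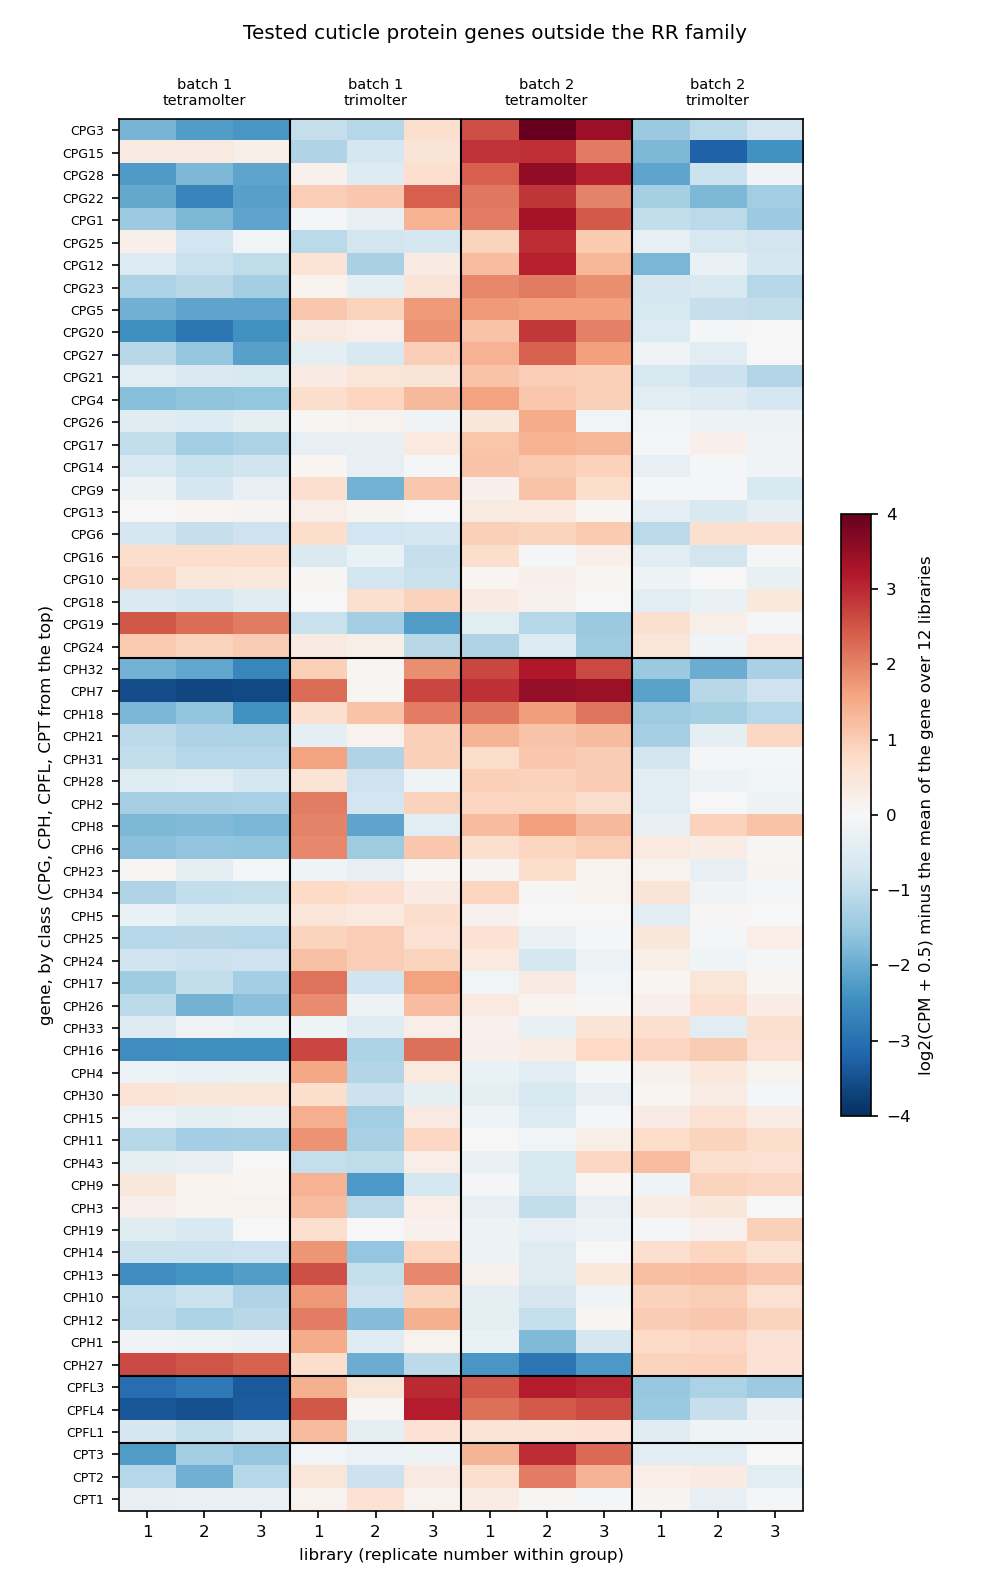
Level of the 62 tested genes in each library as log2(CPM + 0.5) minus the mean of the gene over 12 libraries, with colours saturating at 4 log2 units. Within a class, genes run by their batch 2 change from positive to negative. Most CPG rows are lowest in batch 1 tetramolters and highest in batch 2 tetramolters, and many CPH rows are high in batch 1 trimolters 1 and 3 and low in batch 1 trimolter 2.

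**Figure D3:**
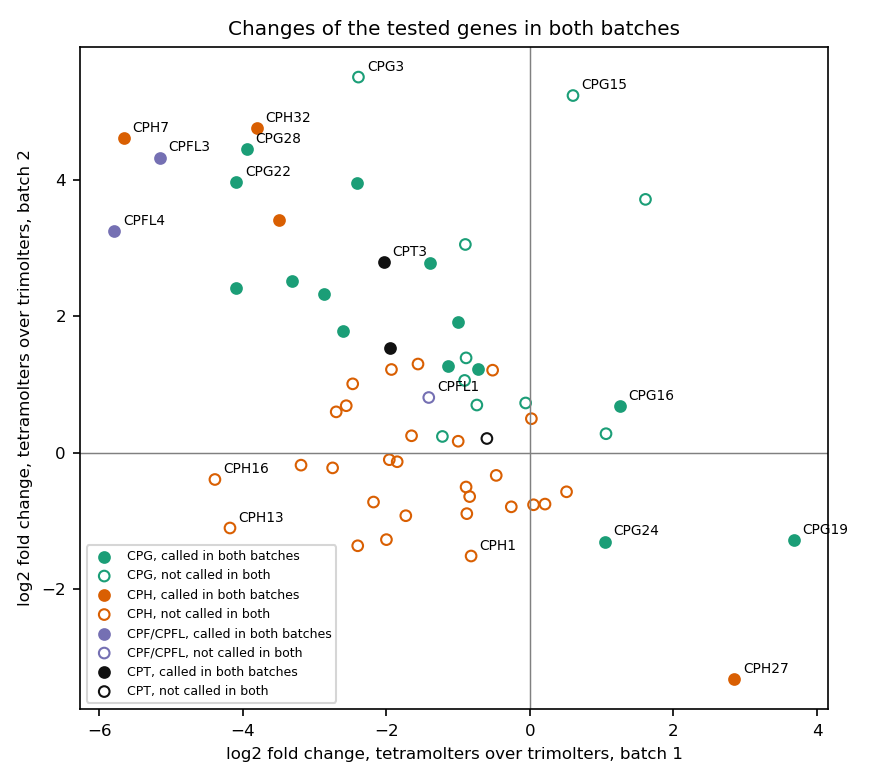
Log2 fold change of tetramolters over trimolters in batch 1 (horizontal) and batch 2 (vertical) for the 62 tested genes, coloured by class, with filled points for genes called in both batches. The upper left corner holds CPH7, CPFL3, CPFL4, CPG22, CPG28 and CPH32, and the lower right corner CPG19, CPG24 and CPH27.

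Among the CPG genes, glycine-rich proteins of the cuticle, 11 of 24 were lower in tetramolters of batch 1 and higher in those of batch 2: CPG1, CPG4, CPG5, CPG14, CPG17, CPG20, CPG21, CPG22, CPG23, CPG27 and CPG28. The most abundant was CPG4 (gene ID 692437). It had 799.8, 855 and 894 CPM in batch 1 tetramolters, against 4291, 4753 and 6438 CPM in batch 1 trimolters, and 8000, 5644 and 5084 CPM in batch 2 tetramolters, against 1912, 1837 and 1655 CPM in batch 2 trimolters. The molting types did not overlap in either batch, and the low libraries were the batch 1 tetramolters. The log2 fold change was -2.60 (SE 0.19, edgeR adjusted p = 1e-05) in batch 1 and 1.79 (SE 0.19, edgeR adjusted p = 8.64e-05) in batch 2.

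CPG22 (gene ID 100379503) had the same order of groups at a lower level. Its values were 3.96, 2.43 and 3.54 CPM in batch 1 tetramolters, against 36.2, 38.0 and 95.4 CPM in batch 1 trimolters, and 78.7, 131.8 and 72.5 CPM in batch 2 tetramolters, against 6.86, 4.83 and 6.48 CPM in batch 2 trimolters. Both tetramolter groups were clear of the trimolters of their batch, on opposite sides. The changes were -4.09 (SE 0.42, edgeR adjusted p = 7.77e-05) and 3.96 (SE 0.39, edgeR adjusted p = 0.000121) log2 units. CPG20 (gene ID 100379504) had 1.16, 0.714 and 1.18 CPM in batch 1 tetramolters, against 11.2, 10.4 and 30.9 CPM in batch 1 trimolters, and 19.5, 64.1 and 36.3 CPM in batch 2 tetramolters, against 5.67, 8.21 and 8.71 CPM in batch 2 trimolters. It fell by 4.09 log2 units (SE 0.66, edgeR adjusted p = 0.000506) in batch 1 and rose by 2.41 (SE 0.48, edgeR adjusted p = 0.00393) in batch 2. CPG28 (gene ID 100379497) was nearly silent in batch 1 tetramolters, with 0.0682, 0.285 and 0.139 CPM, against 2.56, 1.42 and 3.85 CPM in batch 1 trimolters. In batch 2 it had 13.7, 31.7 and 22.4 CPM in tetramolters and 0.132, 0.993 and 1.96 CPM in trimolters. No libraries of the molting types overlapped in either batch, and the changes were -3.94 (SE 1.10, edgeR adjusted p = 0.00403) and 4.45 (SE 0.60, edgeR adjusted p = 0.000347).

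A further 6 CPG genes were called higher in tetramolters in batch 2 and were not called in batch 1: CPG3, CPG12, CPG13, CPG15, CPG25 and CPG26. CPG3 (gene ID 100379518) had 1.16, 0.785 and 0.695 CPM in batch 1 tetramolters, against 2.62, 2.24 and 8.93 CPM in batch 1 trimolters, and 35.8, 220.9 and 64.8 CPM in batch 2 tetramolters, against 1.65, 2.38 and 3.04 CPM in batch 2 trimolters. All 3 batch 2 tetramolters stood above every other library. The batch 2 change was 5.50 log2 units (SE 0.73, edgeR adjusted p = 0.000508). The batch 1 change of -2.39 missed the threshold (edgeR adjusted p = 0.0536) although the groups did not overlap, and it passed in 8 of 24 alternative settings (adjusted p from 0.00538 to 0.0487). CPG15 (gene ID 100379508) had 28.0, 28.1 and 25.7 CPM in batch 1 tetramolters, against 9.28, 13.4 and 31.3 CPM in batch 1 trimolters, and 165.2, 169.3 and 92.7 CPM in batch 2 tetramolters, against 5.87, 1.85 and 3.65 CPM in batch 2 trimolters. The batch 1 groups overlapped through trimolter 3, and the batch 2 groups stood far apart. Its changes were 0.60 (SE 0.44, edgeR adjusted p = 0.294) and 5.23 (SE 0.48, edgeR adjusted p = 9.65e-05). Without batch 1 trimolter 3 the rise in batch 1 passed as well (edgeR adjusted p = 0.0322). The abundant CPG13 (gene ID 100379510) had a small change. It had 2278, 2360 and 2415 CPM in batch 1 tetramolters, against 2710, 2453 and 2210 CPM in batch 1 trimolters, and 2909, 2957 and 2363 CPM in batch 2 tetramolters, against 1759, 1475 and 1723 CPM in batch 2 trimolters. The batch 1 groups overlapped (log2 fold change -0.06, SE 0.14, edgeR adjusted p = 0.730), and the batch 2 groups did not (0.73, SE 0.14, edgeR adjusted p = 0.00171). The call of CPG26, at 0.596 to 3.04 CPM in batch 2, was lost in 14 of 24 alternative settings.

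CPG19 and CPG24 were called higher in batch 1 and lower in batch 2 tetramolters, the reverse of the 11 CPG genes above. CPG19 (gene ID 100379505) had 572, 486 and 432 CPM in batch 1 tetramolters, against 55.7, 39.3 and 21.2 CPM in batch 1 trimolters, and 74.4, 46.0 and 36.0 CPM in batch 2 tetramolters, against 159.0, 120.3 and 99.9 CPM in batch 2 trimolters. The batch 1 tetramolters were the high libraries, and no groups of a batch overlapped. Its log2 fold change was 3.68 (SE 0.34, edgeR adjusted p = 5.3e-05) in batch 1 and -1.28 (SE 0.34, edgeR adjusted p = 0.0144) in batch 2. The batch 2 call was lost without batch 2 tetramolter 2, batch 2 tetramolter 3 or batch 2 trimolter 1 (adjusted p from 0.0513 to 0.0558). CPG24 (gene ID 100379501) had 69.3, 62.4 and 68.9 CPM in batch 1 tetramolters, against 43.2, 39.2 and 15.4 CPM in batch 1 trimolters, and 14.2, 22.9 and 12.2 CPM in batch 2 tetramolters, against 46.9, 30.5 and 44.1 CPM in batch 2 trimolters. Here too the groups of each batch were apart, with changes of 1.04 (SE 0.34, edgeR adjusted p = 0.0313) and -1.30 (SE 0.35, edgeR adjusted p = 0.0147). The batch 1 call of CPG24 was lost in 7 of 24 alternative settings (adjusted p from 0.0510 to 0.0874), among them the omission of any batch 1 tetramolter or of batch 1 trimolter 3, and the batch 2 call without batch 2 tetramolter 1 or 3 (adjusted p from 0.0527 to 0.0594).

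In the model of all 4 groups with TMM scaling, CPG16 was the 1 gene of the 62 called in the same direction in both batches (higher in both: 0.970% of all tested genes). CPG16 (gene ID 100313494) had 2336, 2329 and 2314 CPM in batch 1 tetramolters, against 957, 1194 and 758 CPM in batch 1 trimolters, and 2308, 1350 and 1623 CPM in batch 2 tetramolters, against 1068, 848 and 1391 CPM in batch 2 trimolters. The batch 1 groups were apart, and in batch 2 tetramolter 2 lay below trimolter 3. The changes were 1.26 (SE 0.23, edgeR adjusted p = 0.00121) and 0.68 (SE 0.23, edgeR adjusted p = 0.0382), and the batch 2 call was lost in 9 of 24 alternative settings (adjusted p from 0.0607 to 0.171), 7 of which left out 1 library: any batch 1 tetramolter, batch 2 tetramolter 1 or 3, or batch 2 trimolter 1 or 2. The others were upper quartile scaling and the fits to the groups of each batch alone, where CPG10 was the gene called higher in both batches. Without batch 1 trimolter 3, CPG15 was called higher in both batches beside CPG16. CPG10 (gene ID 100379512) had 169.5, 129.5 and 126.1 CPM in batch 1 tetramolters, against 96.8, 56.5 and 51.3 CPM in batch 1 trimolters, and 100.7, 108.6 and 99.6 CPM in batch 2 tetramolters, against 82.9, 94.8 and 76.3 CPM in batch 2 trimolters. Tetramolters lay above trimolters in each batch without overlap. Only the batch 1 change passed the test (1.06, SE 0.21, edgeR adjusted p = 0.00197), with 0.28 (SE 0.21, edgeR adjusted p = 0.316) in batch 2, where the fit to the batch 2 groups alone gave an adjusted p of 0.0492. CPG6 and CPG9 were called in neither batch. CPG6 (gene ID 100379516) had 204, 170.2 and 181 CPM in batch 1 tetramolters, against 529, 189.9 and 205 CPM in batch 1 trimolters, and 631, 602 and 675 CPM in batch 2 tetramolters, against 152.6, 509 and 515 CPM in batch 2 trimolters. Single libraries set its spread, as batch 1 trimolter 1 was high and batch 2 trimolter 1 low among their replicates. CPG9 (gene ID 100379513) had 3.07, 2.07 and 2.78 CPM in batch 1 tetramolters, against 6.05, 0.597 and 8.15 CPM in batch 1 trimolters, and 4.22, 8.55 and 6.10 CPM in batch 2 tetramolters, against 3.49, 3.38 and 2.16 CPM in batch 2 trimolters. Batch 1 trimolter 2 lay below the tetramolters of its batch and the other trimolters above, and the batch 2 groups were apart. Its changes were -0.91 (SE 0.63, edgeR adjusted p = 0.259) and 1.06 (SE 0.61, edgeR adjusted p = 0.199). Without batch 1 trimolter 2 both passed, at -1.43 (edgeR adjusted p = 0.00346) and 1.06 (edgeR adjusted p = 0.0119).

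**Figure D4:**
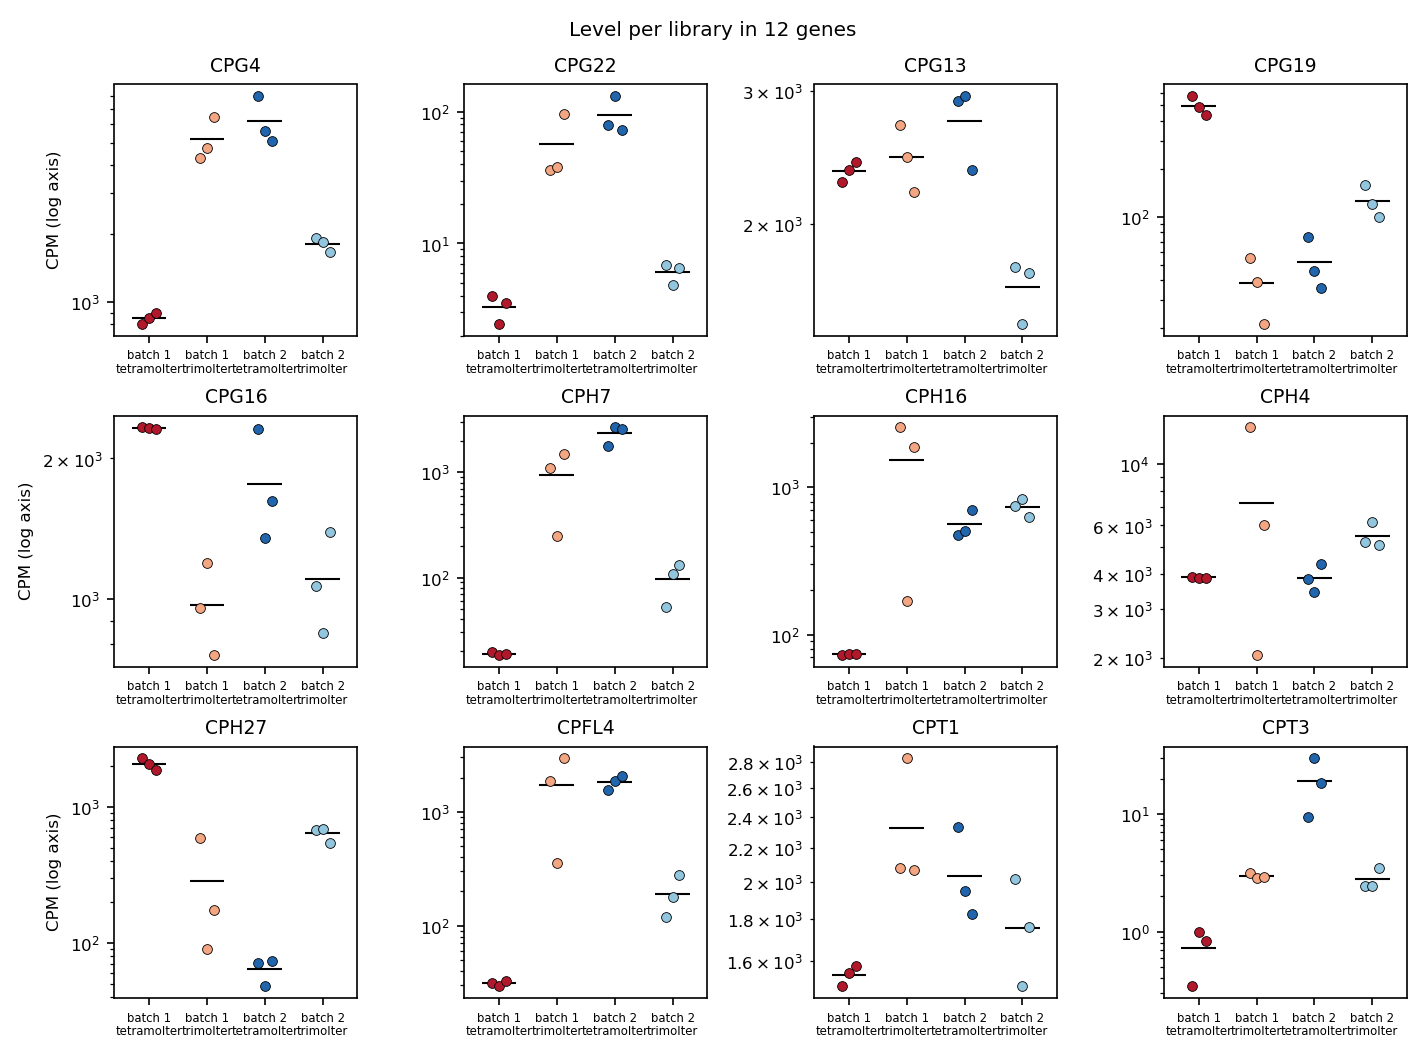
CPM of 12 genes in every library (points; log axis, a different range per panel) with the group mean (line). CPG4, CPG22, CPH7 and CPFL4 are lowest in batch 1 tetramolters and low in batch 2 trimolters, CPG19 and CPH27 are highest in batch 1 tetramolters, and batch 1 trimolter 2 is the low trimolter of batch 1 for CPH7, CPH16, CPH4 and CPFL4.

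For the CPH genes, cuticle proteins outside the known families, the model of all 4 groups called 20 lower and 1 higher in batch 1 tetramolters, against 2 lower and 4 higher in batch 2 tetramolters. Of all tested genes, that model called 22.7% lower and 22.5% higher in batch 1, and 18.2% and 19.5% in batch 2. DESeq2 called 20 CPH genes lower and 1 higher in batch 1, against 3 and 6 in batch 2. Of all tested genes, DESeq2 called 24.9% lower and 23.0% higher in batch 1, and 19.5% and 20.9% in batch 2. With limma-voom the CPH counts were 16 and 1, against 2 and 5. Its shares of all genes were 20.7% and 24.2% in batch 1, and 18.2% and 19.6% in batch 2. Range overlap and fits to each batch alone set the batches less apart. The libraries did not overlap for 16 lower and 1 higher in batch 1 (24.7% and 29.0% of all genes). In batch 2 they did not overlap for 12 lower and 9 higher (27.9% and 27.7%). Fits to each batch alone called 17 lower and 1 higher in batch 1 (19.1% and 18.5% of all genes). In batch 2 they called 11 lower and 7 higher (22.2% and 23.1%). In the model of all 4 groups, 17 were lower in tetramolters of batch 1 and not called in batch 2, and CPH7, CPH18 and CPH32 were lower in batch 1 and higher in batch 2. CPH7 (gene ID 100379489) had the largest difference between the batches among the 62 genes. It had 19.7, 18.1 and 18.6 CPM in batch 1 tetramolters, against 1103, 248 and 1497 CPM in batch 1 trimolters, and 1783, 2707 and 2594 CPM in batch 2 tetramolters, against 52.3, 108.1 and 130.3 CPM in batch 2 trimolters. The lowest batch 1 trimolter still stood above all tetramolters of its batch. The changes were -5.66 (SE 0.53, edgeR adjusted p = 0.000101) and 4.61 (SE 0.52, edgeR adjusted p = 0.000326), with a difference of 10.26 (SE 0.74, edgeR adjusted p = 1.01e-05).

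CPH18 (gene ID 100379478) had 3.41, 4.14 and 2.09 CPM in batch 1 tetramolters, against 21.0, 30.2 and 57.7 CPM in batch 1 trimolters, and 60.8, 43.7 and 61.0 CPM in batch 2 tetramolters, against 4.75, 5.03 and 5.81 CPM in batch 2 trimolters. CPH32 (gene ID 100379465) had 1.36, 1.14 and 0.625 CPM in batch 1 tetramolters, against 12.8, 6.65 and 24.6 CPM in batch 1 trimolters, and 43.3, 63.1 and 42.6 CPM in batch 2 tetramolters, against 1.98, 1.26 and 2.30 CPM in batch 2 trimolters. Neither gene had overlapping groups in a batch. CPH18 changed by -3.50 (SE 0.37, edgeR adjusted p = 6.79e-05) and 3.41 (SE 0.34, edgeR adjusted p = 0.000102), and CPH32 by -3.81 (SE 0.53, edgeR adjusted p = 0.000216) and 4.75 (SE 0.46, edgeR adjusted p = 8.4e-05).

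CPH16 and CPH13 had large batch 1 falls and no call in batch 2. CPH16 (gene ID 100379480) had 72.0, 73.99 and 73.8 CPM in batch 1 tetramolters, against 2576, 169.4 and 1872 CPM in batch 1 trimolters, and 473, 503 and 707 CPM in batch 2 tetramolters, against 744, 829.6 and 628 CPM in batch 2 trimolters. Batch 1 trimolter 2 was more than 10 times lower than its replicates, yet above the tetramolters, and the batch 2 groups overlapped. The batch 1 change was -4.39 (SE 0.65, edgeR adjusted p = 0.00104) and that of batch 2 was -0.39 (SE 0.65, edgeR adjusted p = 0.675). CPH13 (gene ID 100379483) had 14.5, 15.4 and 17.3 CPM in batch 1 tetramolters, against 497, 42.9 and 318 CPM in batch 1 trimolters, and 93.5, 59.4 and 111.5 CPM in batch 2 tetramolters, against 195.1, 195.8 and 177.4 CPM in batch 2 trimolters. The groups of both batches were apart, with tetramolters the lower in each. The batch 1 change of -4.18 passed (SE 0.62, edgeR adjusted p = 0.00088), and the batch 2 change of -1.10 did not (SE 0.60, edgeR adjusted p = 0.181). In batch 2 it passed in 3 of 24 alternative settings, among them the fit without batch 1 trimolter 2 (adjusted p = 0.00199). The others were the fit to the batch 2 groups alone and limma on log2(FPKM + 1), which lacks that library too. With TMM scaling and robust estimation, edgeR called no tested CPG, CPH, CPFL or CPT gene lower in both batches. At an unadjusted p under 0.05, 1 of these genes was lower in both, and limma-voom called 0. That edgeR fit called 1.01% of all tested genes lower in both. CPH10 was called lower in both by DESeq2, and by edgeR with upper quartile scaling, without robust estimation or without batch 1 trimolter 1. The edgeR fits to each batch alone called CPH10, CPH11 and CPH13. With limma on log2(FPKM + 1), where batch 1 trimolter 2 is missing, 5 genes were called. Without batch 1 trimolter 2, edgeR called 7 genes lower in both batches: CPH1, CPH10, CPH11, CPH12, CPH13, CPH14 and CPH15, named here after their values were seen. The share of all genes lower in both is given for the main model only. The counts of the other fits therefore cannot be set against a share of their own.

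The abundant CPH genes differed among themselves. CPH2 (gene ID 100379494) had 733, 743 and 751 CPM in batch 1 tetramolters, against 7727, 1084 and 3549 CPM in batch 1 trimolters, and 3387, 3363 and 3001 CPM in batch 2 tetramolters, against 1355, 1851 and 1622 CPM in batch 2 trimolters. Groups were apart in both batches, in opposite directions, but only batch 1 passed (-2.47, SE 0.49, edgeR adjusted p = 0.00323), as the batch 2 change of 1.01 (SE 0.49) had an edgeR adjusted p of 0.133. It passed without batch 1 trimolter 2 (edgeR adjusted p = 0.0042) or 1 (0.0393), in the fit to the batch 2 groups alone (0.000345) and in limma on log2(FPKM + 1). The last of these also lacked batch 1 trimolter 2. CPH4 (gene ID 100379492) had 3921, 3882 and 3874 CPM in batch 1 tetramolters, against 13620, 2034 and 6036 CPM in batch 1 trimolters, and 3852, 3463 and 4345 CPM in batch 2 tetramolters, against 5209, 6187 and 5108 CPM in batch 2 trimolters. The tetramolters of both batches were at like levels, and batch 1 trimolter 2 fell below them while its replicates stood above. Neither change passed (-0.89, SE 0.48, edgeR adjusted p = 0.152; -0.50, SE 0.48, edgeR adjusted p = 0.439), but that of batch 1 did without batch 1 trimolter 2 (-1.34, edgeR adjusted p = 0.00138) and that of batch 2 in a fit to its own groups (adjusted p = 0.00933). CPH30 (gene ID 100379466) had 4058, 3747 and 3840 CPM in batch 1 tetramolters, against 4509, 1532 and 2151 CPM in batch 1 trimolters, and 2102, 1751 and 2203 CPM in batch 2 tetramolters, against 2933, 3399 and 2672 CPM in batch 2 trimolters. Trimolter 1 overlapped the tetramolters in batch 1, and the batch 2 groups were apart. Its changes of 0.51 and -0.57 (SE 0.30 each) did not pass (edgeR adjusted p = 0.193 and 0.161), and each passed without batch 1 trimolter 1 (adjusted p = 0.000303 in batch 1). CPH15 (gene ID 100379481) had 1293, 1188 and 1242 CPM in batch 1 tetramolters, against 4156, 576 and 1942 CPM in batch 1 trimolters, and 1367, 1054 and 1485 CPM in batch 2 tetramolters, against 1908, 2311 and 1888 CPM in batch 2 trimolters. As for CPH4, batch 1 trimolter 2 lay below the tetramolters of its batch and the batch 2 groups were apart. Its changes were -0.84 and -0.64 (SE 0.50 each, edgeR adjusted p = 0.193 and 0.337), and without batch 1 trimolter 2 both passed, at -1.30 and -0.65 (edgeR adjusted p = 0.00175 and 0.0434).

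CPH27 and CPH1 were the CPH genes called lower in batch 2. CPH27 (gene ID 100379469) had 2299, 2078 and 1873 CPM in batch 1 tetramolters, against 597.7, 91.2 and 176.6 CPM in batch 1 trimolters, and 72.0, 48.0 and 73.6 CPM in batch 2 tetramolters, against 684, 690.5 and 545 CPM in batch 2 trimolters. The batch 1 tetramolters were the highest libraries and the batch 2 tetramolters the lowest, with no overlap in either batch. Its changes were 2.85 (SE 0.52, edgeR adjusted p = 0.00219) and -3.31 (SE 0.52, edgeR adjusted p = 0.00144). It was the 1 gene of the opposite pattern that was called in both batches in each of the 24 alternative settings. CPH1 (gene ID 100379495) had 383, 133.7 and 284 CPM in batch 2 tetramolters, against 788, 815 and 679.6 CPM in batch 2 trimolters. The batch 2 groups were apart (-1.51, SE 0.46, edgeR adjusted p = 0.0272), though the call was lost without batch 2 tetramolter 2 or 3 or without batch 2 trimolter 1 or 2 (adjusted p from 0.0602 to 0.0763). In batch 1, CPH1 had 416, 393 and 385 CPM in tetramolters, against 1270, 328 and 508 CPM in trimolters, which overlapped (-0.82, SE 0.46, edgeR adjusted p = 0.171). Without batch 1 trimolter 2 that change passed, at -1.16 (edgeR adjusted p = 0.0479).

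The 3 tested CPFL genes, of proteins related to the CPF family, fell in batch 1 tetramolters. CPFL3 (gene ID 100302613) had 9.62, 11.2 and 7.71 CPM in batch 1 tetramolters, against 226.6, 116.9 and 670.3 CPM in batch 1 trimolters, and 458, 742 and 679 CPM in batch 2 tetramolters, against 29.1, 34.9 and 30.3 CPM in batch 2 trimolters. CPFL4 (gene ID 100302612) had 31.7, 29.3 and 33.0 CPM in batch 1 tetramolters, against 1875, 358 and 2971 CPM in batch 1 trimolters, and 1554, 1868 and 2053 CPM in batch 2 tetramolters, against 119.5, 178.4 and 276.6 CPM in batch 2 trimolters. For both genes the groups were apart in each batch, and batch 1 trimolter 2 was the lowest of its group. CPFL3 changed by -5.15 (SE 0.51, edgeR adjusted p = 0.000108) and 4.32 (SE 0.49, edgeR adjusted p = 0.000307), and CPFL4 by -5.79 (SE 0.57, edgeR adjusted p = 0.000135) and 3.25 (SE 0.56, edgeR adjusted p = 0.00237). CPFL1 (gene ID 100302615), the most abundant of the class, had 1960, 1611 and 1895 CPM in batch 1 tetramolters, against 7519, 2364 and 4615 CPM in batch 1 trimolters, and 4511, 4490 and 4642 CPM in batch 2 tetramolters, against 2199, 2762 and 2795 CPM in batch 2 trimolters. Its changes had the same signs and were smaller: -1.41 (SE 0.30, edgeR adjusted p = 0.0035) and 0.81 (SE 0.30, edgeR adjusted p = 0.0551). The batch 2 change passed in 6 of 24 alternative settings, among them those without batch 1 trimolter 1 or 2 (adjusted p = 0.00277 without the second). CPFL2 (gene ID 100302614) had 14 counts over all libraries and was not tested.

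The CPT genes encode Tweedle proteins, which in the fruit fly shape the larval body through the cuticle. CPT3 (gene ID 692497) had 0.341, 0.999 and 0.834 CPM in batch 1 tetramolters, against 3.16, 2.84 and 2.94 CPM in batch 1 trimolters, and 9.52, 29.98 and 18.2 CPM in batch 2 tetramolters, against 2.44, 2.45 and 3.44 CPM in batch 2 trimolters. Trimolters of the 2 batches were at like levels, with batch 1 tetramolters below and batch 2 tetramolters above them. The changes were -2.03 (SE 0.49, edgeR adjusted p = 0.00479) and 2.79 (SE 0.37, edgeR adjusted p = 0.000287), though limma-voom did not call the batch 1 change (adjusted p = 0.0850). CPT2 (gene ID 692496) had 0.955, 0.357 and 0.973 CPM in batch 1 tetramolters, against 4.03, 1.27 and 3.59 CPM in batch 1 trimolters, and 4.66, 12.8 and 7.70 CPM in batch 2 tetramolters, against 3.36, 3.51 and 1.82 CPM in batch 2 trimolters. Its groups were apart in both batches (-1.95, SE 0.57, edgeR adjusted p = 0.014; 1.53, SE 0.46, edgeR adjusted p = 0.0233), with the batch 1 call lost without batch 1 tetramolter 2 or in limma-voom (adjusted p from 0.0518 to 0.0829) and the batch 2 call without batch 2 tetramolter 2, trimolter 1 or trimolter 3. CPT1 (gene ID 100379330), the abundant Tweedle gene, had 1491, 1548 and 1578 CPM in batch 1 tetramolters, against 2080, 2830 and 2068 CPM in batch 1 trimolters, and 2329, 1946 and 1827 CPM in batch 2 tetramolters, against 2014, 1493 and 1762 CPM in batch 2 trimolters. Only its batch 1 groups were apart (-0.60, SE 0.16, edgeR adjusted p = 0.012), while batch 2 overlapped (0.21, SE 0.16, edgeR adjusted p = 0.336). CPT4 (gene ID 100379328) had 8 counts in batch 1 tetramolters, 3 in batch 1 trimolters, 27 in batch 2 tetramolters and 16 in batch 2 trimolters, and was not tested.

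The comparison of the batches within a molting type asked whether tetramolters or trimolters differed between them. In tetramolters, 40 of the 62 genes were higher in batch 2 and 4 lower, where 29.0% of all tested genes were called higher and 29.6% lower, and the median log2 fold change was 1.71. In trimolters 1 gene (CPG19) was higher in batch 2 and 15 lower, where 7.29% and 8.10% of all tested genes were called, and the median was -0.46. The 15 were 8 CPG, 5 CPH and 2 CPFL genes. Among those named above, the log2 fold change of batch 2 over batch 1 trimolters was -3.22 for CPG22 (SE 0.39, edgeR adjusted p = 0.00148), -3.43 for CPFL3 (SE 0.49, edgeR adjusted p = 0.00378) and -3.29 for CPH7 (SE 0.52, edgeR adjusted p = 0.00567). The counts between trimolters changed when a library was left out, as did the share over all genes, not always in the same direction. They were 6 higher without batch 1 trimolter 1 (10.7% of all genes), 2 higher without batch 1 trimolter 3 or batch 2 tetramolter 3 (3.19% and 6.45%), and 27 lower without batch 1 trimolter 2 (12.35%). A fit to the trimolters alone called 4 CPG genes and 1 CPH gene lower, where it called 0.526% of all genes lower. It did not call CPFL3 (adjusted p = 0.0577) or CPH7 (adjusted p = 0.0704), and no CPFL gene passed in it. Batch 1 tetramolters had the lowest mean of the 4 groups for 45 of the 62 genes: 15 of 24 CPG, 24 of 32 CPH, and all 3 tested genes of both CPFL and CPT. The highest mean was in batch 2 tetramolters for 19 of 24 CPG genes, against 8 of 32 CPH genes, and in batch 1 trimolters for 17 of 32 CPH genes, against 1 of 24 CPG genes. These orders are descriptions and carry no test.

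Many of these genes neighbour each other on the chromosomes. In the gene order of the RefSeq assembly ASM3026992v2, used here for order only, 50 of the 70 genes fell into 7 rows in which the next such gene was at most 4 genes away. The longest, from CPH27 to CPH6, held 23 CPH genes, of which 21 were tested. Along it the level of batch 1 trimolter 2 varied. It was low in CPH27 and CPH26 at one end, at 0.236 and 0.282 of the mean of batch 1 trimolters 1 and 3. From CPH34 to CPH18 that ratio was 0.686 to 1.17 in the 7 tested genes, and from CPH17 to CPH6 it was 0.0762 to 0.214 in all 12. The 12 genes summed to 3106, 2880 and 2953 CPM in batch 1 tetramolters and to 19240, 2159 and 11320 CPM in batch 1 trimolters. So for their sum, batch 1 trimolter 2 lay below the tetramolters and the other trimolters far above. The 7 genes summed to 969, 1039 and 1048 CPM in batch 1 tetramolters and to 3827, 3574 and 3040 CPM in batch 1 trimolters, where all trimolters were high. Both stretches were marked off after their values were seen, and no test was made. Reads of near-identical neighbours may be split between them, since the sources used here do not say how such reads were counted.

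**Figure D5:**
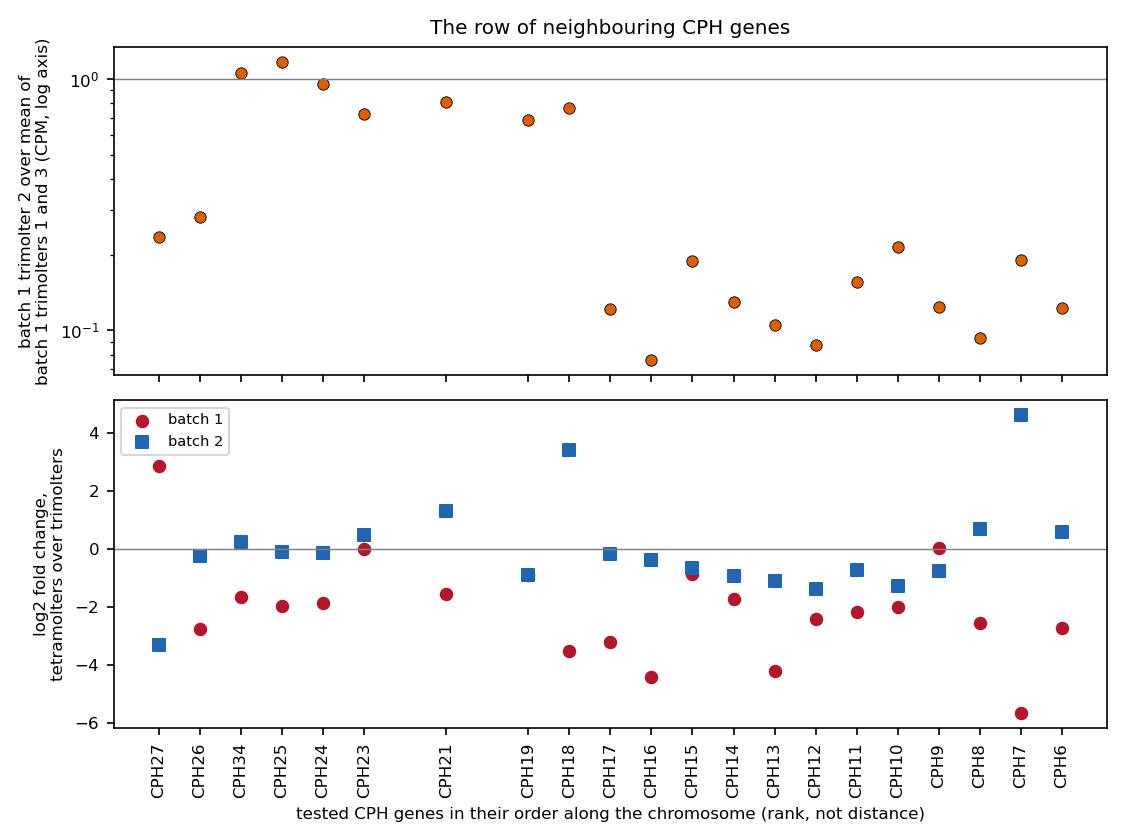
Tested CPH genes of the longest row, in their order along the chromosome. Upper panel: CPM of batch 1 trimolter 2 over the mean of batch 1 trimolters 1 and 3 (log axis), 0.236 and 0.282 in CPH27 and CPH26, 0.686 to 1.17 from CPH34 to CPH18 and 0.0762 to 0.214 from CPH17 to CPH6. Lower panel: log2 fold change of tetramolters over trimolters in batch 1 and batch 2, with CPH27, CPH18 and CPH7 apart from their neighbours.

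Members of different classes also stood side by side. A row of 10 genes from CPG25 to CPH32 (CPG25 to CPG28, CPG1 to CPG5 and CPH32) had 9 tested genes, all higher in batch 2 tetramolters, 6 of them lower in batch 1 tetramolters. Of all tested genes, 19.5% were called higher in batch 2 and 22.7% lower in batch 1. The batch 2 call of CPG26 was lost in 14 of 24 alternative settings, and CPG25 had 136 of its 242 counts in 1 library. The pairwise correlation of log2 CPM of the 9 genes over the 12 libraries had a median of 0.83. The row of CPFL2, CPFL3, CPG22, CPG23 and CPFL4 had 4 tested genes, all lower in batch 1 and higher in batch 2 tetramolters (11.0% of all tested genes). Their median correlation was 0.93. In the other 4 rows with at least 2 tested genes, the longest included, the median was 0.52 to 0.57, and in the longest single pairs ranged from -0.92 to 0.99. Over all pairs of tested genes the median was 0.63 within a row (260 pairs) and 0.36 over the other pairs (1631 pairs). Those other pairs include genes that lie in no row. For other pairs of genes of 1 class the median was 0.45 (533 pairs). CPH27, at the end of the long CPH row, had a batch 1 change of the opposite sign (2.85) to that of CPH26 beside it (-2.75, also called). The correlations share the 12 libraries and the group differences, and are given as descriptions.

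Other genes of the cuticle were set beside these. The shares over all tested genes were 22.5% higher and 22.7% lower in batch 1 tetramolters, and 19.5% higher and 18.2% lower in batch 2 tetramolters. Of 97 tested RR genes, 54 were lower and 7 higher in batch 1 tetramolters, and 60 were higher and 3 lower in batch 2 tetramolters. In batch 2 the RR share of 60 of 97 stood nearer to the 18 of 24 CPG genes than to the 4 of 32 CPH genes, a difference between lists that was not tested. Among 3 genes of chitin turnover, Treh-2, a trehalase that supplies sugar for chitin synthesis, fell by 2.12 log2 units in batch 1 tetramolters (SE 0.20, edgeR adjusted p = 2.86e-05) and FDL, a hexosaminidase, fell by 0.68 (edgeR adjusted p = 0.0408). Chi-h, a chitinase of the molt, rose by 2.99 in batch 2 tetramolters (SE 0.54, edgeR adjusted p = 0.00273), with a value of -1.06 in batch 1 (edgeR adjusted p = 0.14). Of 9 tanning and melanin genes, 3 were higher and 1 lower in batch 1 tetramolters, and 1 was higher and 3 lower in batch 2 tetramolters. Those called in both batches were yellow-12 (1.37 and -1.63) and yellow-11 (2.16 and -2.39), of the yellow family of pigment genes, with the signs of CPG19, CPG24 and CPH27. Of 8 genes listed as regulators of the ecdysone response, 2 were higher (E75 and Kr-h1) and 3 lower (E74, Br-c and Ftz-f1) in batch 1 tetramolters. Kr-h1 is also a gene of juvenile hormone signalling. In batch 2 tetramolters 2 were lower (USP and Ftz-f1). Ftz-f1, a nuclear receptor that acts late in the molt, was thus lower in both batches (-0.50 and -0.72, edgeR adjusted p = 0.0194 and 0.0034).

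Markers of other tissues moved as well, where 22.5% of all tested genes were called higher and 22.7% lower in batch 1. The shares in batch 2 were 19.5% and 18.2%. Of 6 muscle genes, 5 were higher in batch 1 tetramolters and 4 lower in batch 2 tetramolters. They summed to 28070, 27340 and 27240 CPM in batch 1 tetramolters, against 21840, 9005 and 13590 CPM in batch 1 trimolters, and to 11330, 10570 and 9834 CPM in batch 2 tetramolters, against 18760, 15170 and 16350 CPM in batch 2 trimolters. The muscle sum ran opposite to the CPG sum in each batch, but in batch 1 not to that of the 27 CPG genes other than CPG4. Without both CPG4 and CPG16 it again ran opposite in batch 1, with CPG sums of 3554 to 3697 CPM in tetramolters, against 3844 to 4579 CPM in trimolters. Batch 1 trimolter 2 was the lowest library of the muscle sum. Midgut markers summed to 14540 to 16700 CPM in batch 1 tetramolters, against 10920 to 22800 CPM in batch 1 trimolters, and to 8938 to 10940 CPM in batch 2 tetramolters, against 11650 to 15590 CPM in batch 2 trimolters. Of these 5 genes 2 were lower in batch 1, and 2 were higher and 1 lower in batch 2. Haemocyte markers (PPO1 and PPO2) summed to 1355 to 1470 CPM in batch 1 tetramolters, against 443 to 2205 CPM in batch 1 trimolters, and to 2009 to 2428 CPM in batch 2 tetramolters, against 3316 to 4103 CPM in batch 2 trimolters. Both trachea markers, Btl and trh, were lower in batch 1 tetramolters (-0.31 and -0.84), and neither was called in batch 2. Silk gland markers stayed at or below 1.71 CPM in sum, with Ser2, FIBH and Ser3 under 10 counts in all, and of 9 fat body markers LP3, Lp-c12 and VG were. Fat body markers summed to 5.09 to 69.1 CPM. In batch 1 tetramolters Sp2 was lower (-5.48, edgeR adjusted p = 0.0206) and Lsp-t higher (2.90, edgeR adjusted p = 0.000127). P25 of the silk gland was higher there (2.58, edgeR adjusted p = 0.0072), at a mean of 1.14 CPM. Neither list had a call in batch 2. All 13 nervous system markers had at least 10 counts, with a sum of 64.0 to 133.1 CPM. The part of tissue make-up in the results for the cuticle genes was not tested.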

How the data were processed

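Poly(A) RNA of 12 libraries was sequenced on paired ends. The submitters' processing notes name HISAT2 2.2.1, Trimmomatic 0.39, DESeq2 1.38.3 and StringTie 2.2.1, while the labels' extract protocol has a different HISAT2 version. Not given in the sources used here: how reads were counted, the build, the annotation and strand. The deposited table of whole-number counts was tested, and the deposited FPKM table, in which the authors scaled counts by length and depth, served for levels between genes and for 1 alternative. Its column for batch 1 trimolter 2 was empty and is the 1 column left unused, so FPKM means cover 11 libraries.

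Symbols came from RefSeq's gene table of assembly ASM3026992v2 (14945 of 17583 rows matched). The 511 loci numbered by the authors were left out (0.21% to 0.264% of the counts). The main test was edgeR's quasi-likelihood test (edgeR 4.0.16, R 4.3.3) with robust estimation (chosen after the data were seen), TMM factors and filterByExpr by group, in 1 model with a mean for each of 4 groups and 5 contrasts. P-values were 2-sided and adjusted by Benjamini and Hochberg over 10721 genes within a contrast. The 62 genes that met the rule of 10 counts in 3 libraries all passed this filter too, so a gene high in only 1 group could enter through it, and counts over the 62 are descriptions. CPM are TMM-scaled. Replicate pairs all differed by more than sampling noise. The scripts were tested on simulated data.

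Members and gene lists were chosen with earlier results of these data known. Named were all CPFL and CPT genes and, in CPG and CPH, the 3 with highest FPKM, the 3 largest called rises and falls per batch (mean of at least 1 log2 CPM, no overlap), genes called in both batches in the same direction or against most, and the 3 most abundant called in neither batch. Alternatives were other scalings and filters, DESeq2 1.42.0, limma 3.58.1 (voom, and log2(FPKM + 1)), fits to the compared groups alone, a replicate block and leaving out each library.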

Additional observations from a re-analysis of the deposited data

Results flagged for a closer look

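The results below were picked out because the change of tetramolters against trimolters differed between the batches in the test of that difference itself (edgeR, batch 2 minus batch 1, adjusted p under 0.05). With 53.5% of all tested genes called in that test, a call alone does not set a gene apart. No cause was tested.

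Among CPG genes the difference was 8.40 log2 units for CPG28, 8.05 for CPG22, 7.89 for CPG3, 6.50 for CPG20, 4.63 for CPG15, 4.40 for CPG4 and 0.80 for CPG13. It was -4.96 for CPG19, -2.34 for CPG24 and -0.77 for CPG10, whose call was lost in 15 of 23 alternative settings. Among CPH genes it was 10.26 for CPH7, 8.55 for CPH32, 6.90 for CPH18, 4.0 for CPH16, 3.49 for CPH2 and 3.08 for CPH13, and -6.16 for CPH27. The CPFL genes gave 9.47 (CPFL3), 9.04 (CPFL4) and 2.22 (CPFL1), and the CPT genes 4.82 (CPT3), 3.48 (CPT2) and 0.81 (CPT1).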

How the results depend on the processing

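Of 3570 recomputed values of named genes, 3418 kept direction and call, 62 lost the call, 90 gained it and 0 reversed. Genes lower in batch 2 tetramolters numbered 10 with limma on log2(FPKM + 1) and 13 in a fit to those groups alone, against 4. The shares of all genes called lower in these fits were 20.55%, 22.2% and 18.2%. In trimolters, genes higher in batch 2 were 2 with DESeq2 (10.2% of all genes) and 2 with limma-voom (8.26%), against 1 (7.29%). With edgeR on the trimolters alone they were 0 (0.71% of all genes), or 2 at an unadjusted p under 0.05. Genes lower in batch 2 trimolters were 24 with log2(FPKM + 1) (10.9%) and 5 on the trimolters alone (0.526%), against 15 (8.10%). The cause was not tested, though a fit to 2 groups has fewer libraries and the fit to log2(FPKM + 1) lacks batch 1 trimolter 2. Leaving out 1 library gave 4 to 7 higher and 34 to 43 lower in batch 1, 23 to 31 and 2 to 11 in batch 2 (11 without batch 1 trimolter 2, and 2 without batch 2 tetramolter 2, tetramolter 3 or trimolter 1), 38 to 45 and 3 to 8 for the difference (8 without batch 1 trimolter 1), 1 to 6 and 11 to 27 between trimolters, and 37 to 46 and 3 to 5 between tetramolters. The genes lower in batch 1 and higher in batch 2 numbered 17 to 26 over all settings, against 18 in the main model. The share over all genes for this pattern is given for the main model only (11.0%).

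Same-numbered libraries deviated together with correlations of -0.042 to 0.114. Little deviation was shared, but this cannot tell whether the numbers pair the libraries. A replicate block gave 4 higher and 35 lower in batch 1 (21.5% and 19.9% of all genes), and 26 and 4 in batch 2 (17.85% and 16.3%). For the difference it gave 37 and 5 (24.7% and 25.6%). Between trimolters it gave 1 and 15 (5.485% and 5.429%), and between tetramolters 39 and 5 (27.3% and 28.5%). Depth limits what can be said of the 8 untested genes, and reads carried no molecular identifiers.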
